A study of Rattus norvegicus with 12 samples.

Results

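The Wnt genes described here were read in rat libraries labelled left atrium. They are the secreted Wnt ligands, the frizzled receptors (Fzd) and the co-receptors Lrp5, Lrp6, Ror1 and Ror2. Also included are the planar polarity proteins Vangl1 and Vangl2 and the secreted antagonists of the Sfrp and Dkk families. All were chosen by gene symbol alone, and 43 genes matched among the 21239 with counts. These were 19 Wnt genes, 10 frizzled genes, 4 co-receptors, 2 Vangl genes and 8 antagonists. RNA from 12 libraries was sequenced, 3 in each of 4 groups, from rats bought at 14 weeks of age and dosed daily for 4 weeks. The WKY group (Wistar-Kyoto, the normotensive strain) and the SHR group (spontaneously hypertensive rats) received saline at 7.5 ml/kg/day. The ARB group was SHRs given valsartan, an angiotensin receptor blocker, at 30 mg/kg/day, and the ARNI group was SHRs given sacubitril/valsartan, which adds a neprilysin inhibitor, at 60 mg/kg/day. Nothing in the labels ties a library to one animal, so p-values measure only the spread between these libraries.

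Wnt proteins are lipid-modified ligands that leave the cell with the help of Porcn and Wls and bind frizzled receptors. With Lrp5 or Lrp6 a frizzled receptor stabilises beta-catenin, which acts with TCF and LEF factors in the nucleus; with Ror1, Ror2 or the Vangl proteins, ligands such as Wnt5a, Wnt5b and Wnt11 act on cell polarity and the cytoskeleton without beta-catenin. Sfrp proteins bind Wnt ligands outside the cell, whereas Dkk1, Dkk2 and Dkk4 bind Lrp5 and Lrp6, and Dkk3 is a divergent relative that does not act in that way. In the heart the pathway is best known from chamber formation, the epicardium and fibroblast activation after injury.

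For the 6 saline libraries the strain words of the title contradict the bracketed library name, and the name was used, so all SHR and WKY directions turn around if the title words are right. All 12 libraries also carry the strain value Wistar-Kyoto, and the ARB and ARNI libraries were taken as SHRs from their titles and phenotype labels. Mettl24, a gene read at 3.02 to 3.58 CPM (read counts scaled to the library total) in the 3 WKY libraries, was at 0 in 8 of the other 9 libraries, ARNI replicate 2 among them, and at 0.0688 CPM in ARB replicate 2. In this gene the libraries named SHR were like the ARB and ARNI libraries, whose titles say SHR, and unlike those named WKY. Which label is right was not tested. The labelled tissue was left atrium, but the WKY libraries and ARNI replicate 2 were low in 6 of 7 atrial cardiomyocyte markers, each lower than in any of the other 8 libraries. The seventh, Fgf12, was at 39.1 to 48.2 CPM in WKY and 54.1 CPM in ARNI replicate 2, beside 75.6 to 142 CPM in the other 8. Myl7, the atrial myosin light chain, was at 0.889 to 15.9 CPM in the WKY libraries and at 9.67 CPM in ARNI replicate 2, and at 4478 to 11547 CPM in the other 8 libraries. Myl2, the ventricular light chain, was at 3489 to 3776 CPM in WKY and 4161 CPM in ARNI replicate 2, at 2298 CPM in SHR replicate 2 and 2573 CPM in ARB replicate 3, and at 0.135 to 24.2 CPM in the other 6. Myh7, also a ventricular marker, was at 32130 to 32744 CPM in WKY but at 5907 CPM in ARNI replicate 2. It was at 3319 CPM in SHR replicate 2, 2802 CPM in ARB replicate 3 and 357 to 763 CPM in the other 6. The ventricular transcription factor Irx4 lay between 26.2 and 49.7 CPM in the WKY libraries, ARNI replicate 2, SHR replicate 2 and ARB replicate 3, and at or below 0.0669 CPM in the other 6. In all, 5 of 13 marker lists had summed levels that did not overlap between SHR and WKY: atrial cardiomyocyte, ventricular cardiomyocyte, epicardial and mesothelial, smooth muscle, and lymphocyte. Chamber content and group cannot be told apart between SHR and WKY, and in such bulk RNA fewer cells of a type and less RNA per cell cannot be told apart either.

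Between SHR and WKY, the receptors Ror1, Fzd8 and Fzd5 and the polarity gene Vangl2 were higher in SHR. So were the antagonist Sfrp1 and Dkk3, the divergent member of the Dkk family. These 6 genes were higher by 2.35-fold to 7.16-fold, and the ligand Wnt5b was 5.07-fold lower. A call needed a log2 fold change beyond 1 in either direction together with an adjusted p no higher than 0.05 (edgeR quasi-likelihood test, adjusted over all genes tested). Of the 43 genes, 29 passed the filter on low counts and 7 were called, 24.1% of those tested, beside a background of 8.89% (1226 of 13794 genes). In the upward direction 6 of 29 were called beside a background of 5.54%, and in the downward direction 1 of 29 beside 3.35%. The median log2 fold change of the 29 genes was 0.47, beside 0.01 over all genes tested. The CPM ranges of the SHR and WKY groups did not overlap for 19 of the 29 genes (65.5%), where the background was 49.6%, and 18 of 29 had an unadjusted p under 0.05 (62.1%, background 39.4%).

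**Figure D1:**
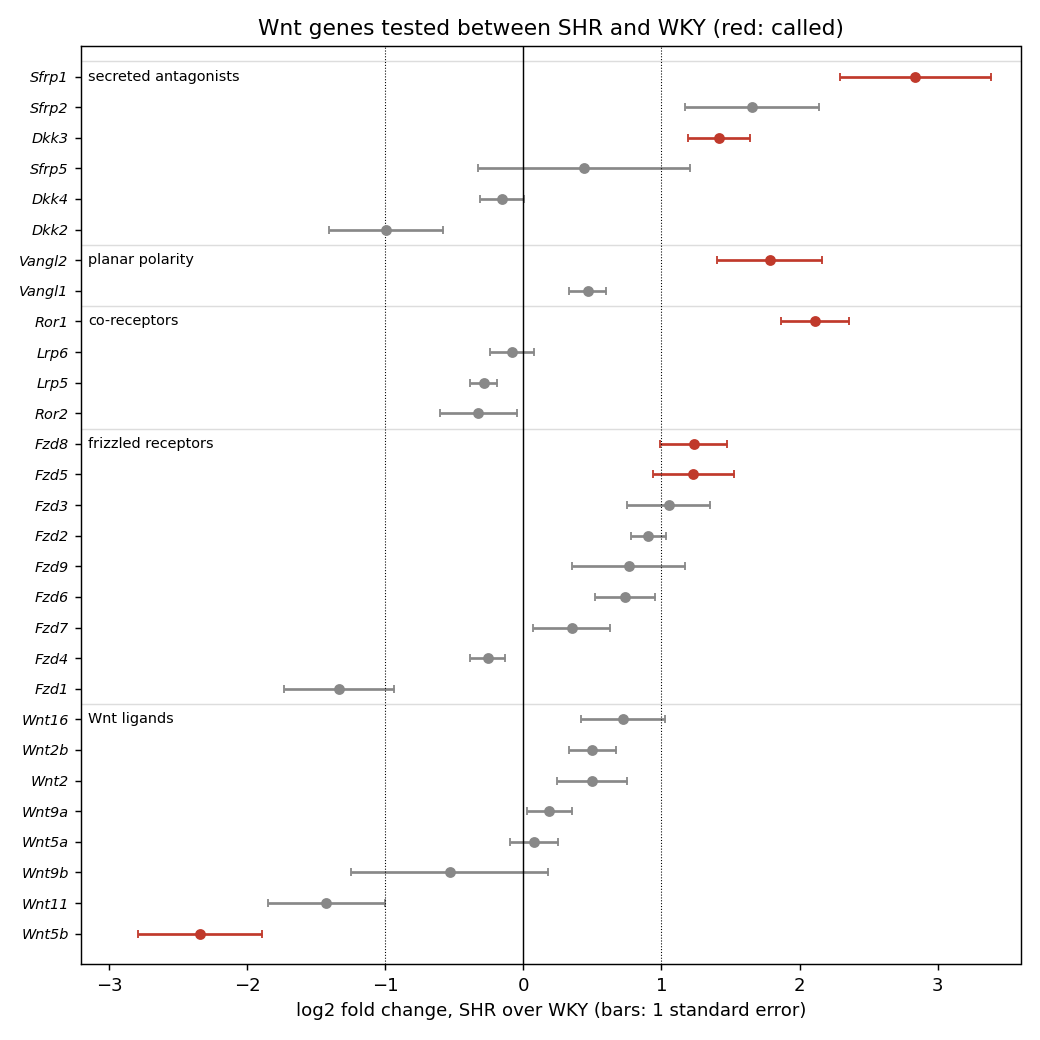
Log2 fold change in SHR over WKY (horizontal axis) for the 29 genes that passed the filter, grouped by role, with bars of 1 standard error, dotted lines at -1 and 1, and called genes in red. The 7 called genes run from Wnt5b at -2.34 to Sfrp1 at 2.84, and 6 of them lie to the right of 1.

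The ligands gave 1 call. Wnt5b, which signals mainly outside the beta-catenin branch, was at 3.92, 3.65 and 3.29 CPM in WKY and at 0.401, 1.34 and 0.610 CPM in SHR, with 0.265, 0.275 and 0.793 CPM in ARB and 0.379, 4.17 and 0.882 CPM in ARNI. All SHR and ARB values lay below all WKY values, and ARNI replicate 2 lay above them. The SHR-over-WKY log2 fold change was -2.34 (SE 0.45, adjusted p = 0.0189 by edgeR). Wnt11, a ligand of heart outflow development, had a similar order of libraries: 14.7, 16.001 and 17.3 CPM in WKY, 3.14, 10.6 and 5.69 CPM in SHR, 4.36, 5.43 and 10.3 CPM in ARB, and 2.40, 21.0 and 6.85 CPM in ARNI. It was not called, at a log2 fold change of -1.43 (SE 0.42, adjusted p = 0.0554 by edgeR).

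Wnt5a, a ligand of the Ror receptors, was at 23.6, 20.8 and 23.6 CPM in WKY, 28.2, 28.9 and 21.1 CPM in SHR, 23.3, 22.0 and 16.8 CPM in ARB, and 27.3, 23.6 and 13.1 CPM in ARNI. The groups overlapped, and the SHR-over-WKY log2 fold change was 0.07 (SE 0.17). The remaining ligands tested had SHR-over-WKY log2 fold changes between -0.53 (Wnt9b) and 0.72 (Wnt16), and none was called. Wnt2b, expressed by mesothelium among other tissues, was at 7.25, 7.37 and 7.37 CPM in WKY and at 9.02, 11.5 and 13.7 CPM in SHR, at a log2 fold change of 0.50 (SE 0.17, adjusted p = 0.0791 by edgeR). Its lowest values over all 12 libraries were those of ARNI replicate 2 (2.83 CPM) and ARB replicate 3 (5.07 CPM), and the other ARB and ARNI libraries ranged from 9.79 to 19.8 CPM.

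Many Wnt genes were hardly read. The 12 genes that passed the filter in no comparison were Wnt1, Wnt3, Wnt3a, Wnt4, Wnt7a, Wnt7b, Wnt8a, Wnt8b, Wnt10a, Wnt10b, Fzd10 and Dkk1. Their highest value was 0.511 CPM (Wnt3 in WKY replicate 1), and none exceeded 7.05 counts in a library. A count of 0 allowed up to 3 counts, 0.190 to 0.267 CPM by library, so differences among these genes were not detectable at this depth. Wnt6 and Sfrp4 passed the filter in some comparisons of treated groups and not between SHR and WKY.

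Of 9 frizzled receptors tested, 7 had a positive SHR-over-WKY log2 fold change, and Fzd8 and Fzd5 were called. Fzd8 was at 12.7, 11.1 and 14.04 CPM in WKY, 39.3, 20.4 and 38.7 CPM in SHR, 49.0, 31.7 and 17.7 CPM in ARB, and 33.7, 7.05 and 34.2 CPM in ARNI. ARNI replicate 2 lay below every WKY library, and the other 8 libraries lay above every WKY library. The SHR-over-WKY log2 fold change was 1.23 (SE 0.24, adjusted p = 0.0202 by edgeR). Fzd5 was at 5.54, 6.96 and 4.98 CPM in WKY, 14.2, 9.30 and 22.2 CPM in SHR, 15.9, 11.6 and 5.07 CPM in ARB, and 19.2, 6.60 and 9.16 CPM in ARNI. ARB replicate 3 and ARNI replicate 2 lay within the WKY range, and the SHR-over-WKY log2 fold change was 1.23 (SE 0.29, adjusted p = 0.0332 by edgeR).

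Fzd2 passed the p threshold at a smaller fold. It was at 8.87, 8.70 and 7.55 CPM in WKY, 16.4, 15.5 and 20.1 CPM in SHR, 18.1, 16.2 and 12.7 CPM in ARB, and 17.2, 6.05 and 18.7 CPM in ARNI. Its SHR-over-WKY log2 fold change was 0.91 (SE 0.13, adjusted p = 0.0087 by edgeR), and SHR and WKY did not overlap. With it, 8 of 29 genes passed the p threshold at any fold, beside a background of 20.6%. Fzd6, a receptor of planar polarity, was at 12.2, 11.9 and 12.4 CPM in WKY, 21.7, 15.1 and 30.7 CPM in SHR, 19.9, 17.3 and 11.6 CPM in ARB, and 20.2, 11.8 and 14.3 CPM in ARNI. It had a log2 fold change of 0.73 (SE 0.22, adjusted p = 0.0547 by edgeR), and Fzd3, also of planar polarity, one of 1.05 (SE 0.30, adjusted p = 0.0504 by edgeR).

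Fzd1 had the opposite sign. It was at 67.1, 67.1 and 62.7 CPM in WKY, 15.8, 46.6 and 22.4 CPM in SHR, 20.2, 19.3 and 32.0 CPM in ARB, and 17.6, 56.7 and 23.7 CPM in ARNI. The WKY libraries were the highest 3 of 12, with ARNI replicate 2 and SHR replicate 2 next, and the SHR-over-WKY log2 fold change was -1.33 (SE 0.40, adjusted p = 0.0563 by edgeR), which was not called. Fzd4, the receptor for Norrin in vessels, was at 112, 86.5 and 95.7 CPM in WKY, 82.5, 83.8 and 105 CPM in SHR, 74.0, 110 and 65.3 CPM in ARB, and 94.6, 77.8 and 112 CPM in ARNI. Its groups overlapped throughout, at a SHR-over-WKY log2 fold change of -0.26 (SE 0.13, adjusted p = 0.178 by edgeR). Fzd7 and Fzd9 also overlapped between SHR and WKY.

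Among the co-receptors, Ror1 was higher in SHR, whereas Lrp5, Lrp6 and Ror2 were not called. Ror1, a receptor tyrosine kinase-like protein that binds Wnt5a, was at 2.47, 2.61 and 2.22 CPM in WKY, 13.8, 7.73 and 13.5 CPM in SHR, 11.6, 9.01 and 3.57 CPM in ARB, and 12.4, 1.41 and 8.48 CPM in ARNI. ARNI replicate 2 was the lowest of the 12 libraries, and the other 8 libraries labelled SHR, ARB or ARNI lay above the WKY range. The SHR-over-WKY log2 fold change was 2.11 (SE 0.24, adjusted p = 0.00524 by edgeR), a 4.32-fold difference. Ror2, its close relative, was at 1.28 to 1.51 CPM in WKY and 1.02 to 1.47 CPM in SHR, at a log2 fold change of -0.33 (SE 0.28).

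Lrp5 was at 159, 159 and 156 CPM in WKY, 154, 125 and 148 CPM in SHR, 148, 133 and 122 CPM in ARB, and 162, 153 and 129 CPM in ARNI. Its SHR-over-WKY log2 fold change was -0.29 (SE 0.10, adjusted p = 0.0785 by edgeR). Lrp6 was at 43.3, 55.0 and 48.2 CPM in WKY, 51.4, 38.9 and 62.8 CPM in SHR, 45.4, 62.9 and 28.7 CPM in ARB, and 68.4, 36.3 and 56.7 CPM in ARNI, and its groups overlapped. For Lrp6 the log2 fold change was -0.08 (SE 0.16).

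Of the planar polarity pair, Vangl2 was called and Vangl1 was not. Vangl2 was at 1.41, 1.05 and 0.994 CPM in WKY, 4.81, 2.36 and 6.18 CPM in SHR, 4.86, 4.97 and 2.97 CPM in ARB, and 3.56, 0.472 and 1.15 CPM in ARNI. All SHR and ARB values lay above WKY, but ARNI replicate 3 lay within the WKY range and ARNI replicate 2 below it. The SHR-over-WKY log2 fold change was 1.78 (SE 0.38, adjusted p = 0.0247 by edgeR). Vangl1 was at 14.2, 16.6 and 14.04 CPM in WKY, 24.7, 18.4 and 25.3 CPM in SHR, 22.3, 26.1 and 15.3 CPM in ARB, and 24.5, 13.05 and 19.5 CPM in ARNI. SHR and WKY did not overlap for Vangl1, and the log2 fold change was 0.47 (SE 0.13, adjusted p = 0.0513 by edgeR).

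Because Ror1 and Vangl2 belong to the same branch and were both higher in SHR, the 250 bases before their start sites are shown, from RefSeq on build GRCr8, which is not the build of the counts. Capitals mark AGGTGT or its reverse complement, the core letters of a T-box site.

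Ror1 (chr5:119859494-119859743, + strand): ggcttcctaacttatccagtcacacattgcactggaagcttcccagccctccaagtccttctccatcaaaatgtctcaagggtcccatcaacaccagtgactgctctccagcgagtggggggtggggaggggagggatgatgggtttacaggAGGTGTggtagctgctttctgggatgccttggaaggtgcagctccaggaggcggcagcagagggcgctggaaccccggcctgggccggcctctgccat

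Vangl2 (chr13:87021771-87022020, - strand): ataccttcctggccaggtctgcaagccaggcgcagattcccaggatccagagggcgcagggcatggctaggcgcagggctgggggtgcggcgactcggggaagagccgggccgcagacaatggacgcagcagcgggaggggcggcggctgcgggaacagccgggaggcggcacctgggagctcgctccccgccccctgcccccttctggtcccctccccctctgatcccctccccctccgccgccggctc

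AGGTGT was read on both strands and occurred once in the Ror1 window, starting 98 bases before the start site, and not in the Vangl2 window. Of 27457 rat promoter windows of the same length, 11.4% held it. CTTTGA, the core of a TCF or LEF site, was in 13.8% of all windows and in neither of these 2, and AGGTCA, the core of a nuclear receptor site, was in 13.7% of all windows and in neither. Of the 7 called genes, 4 had a window (Ror1, Vangl2, Fzd5 and Fzd8), and the AGGTGT of Ror1 was the only match to any of the 3 motifs in them. Of the 43 genes, 29 had a window in the table, and 3 of the 29 held CTTTGA, 3 held AGGTGT and 1 held AGGTCA.

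The secreted antagonists included the largest difference between SHR and WKY among the 29 Wnt genes tested. Sfrp1, which binds Wnt ligands, was at 15.0, 14.1 and 13.7 CPM in WKY, 62.1, 54.7 and 229 CPM in SHR, 83.3, 116 and 43.9 CPM in ARB, and 70.2, 9.53 and 180 CPM in ARNI. SHR replicate 3 and ARNI replicate 3 were highest and ARNI replicate 2 lowest. The SHR-over-WKY log2 fold change was 2.84 (SE 0.55, adjusted p = 0.0196 by edgeR), a 7.16-fold difference, and without SHR replicate 3 it was 1.94. Dkk3 was at 268, 271 and 238 CPM in WKY, 981, 506 and 805 CPM in SHR, 876, 860 and 439 CPM in ARB, and 937, 201 and 702 CPM in ARNI. Every SHR and ARB library lay above WKY, ARNI replicate 2 lay below it, and the SHR-over-WKY log2 fold change was 1.42 (SE 0.23, adjusted p = 0.0121 by edgeR).

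Sfrp2, an antagonist made by fibroblasts, had no overlap between SHR and WKY but was not called. It was at 4.01, 3.57 and 5.33 CPM in WKY, 12.3, 24.3 and 7.38 CPM in SHR, 12.9, 17.0 and 21.6 CPM in ARB, and 9.92, 0.550 and 18.4 CPM in ARNI, with a log2 fold change of 1.66 (SE 0.48, adjusted p = 0.0535 by edgeR). Sfrp5 varied more within groups than between them: it was at 4.31 to 5.98 CPM in WKY, at 2.52, 17.7 and 3.19 CPM in SHR, and reached 30.9 CPM in ARNI replicate 3. Dkk4 was at 5.39 to 9.52 CPM over all 12 libraries, and Dkk2 at 0.463 to 2.70 CPM. Dkk2 had a log2 fold change of -0.995 (SE 0.41, adjusted p = 0.125 by edgeR) and Dkk4 one of -0.16 (SE 0.16).

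**Figure D2:**
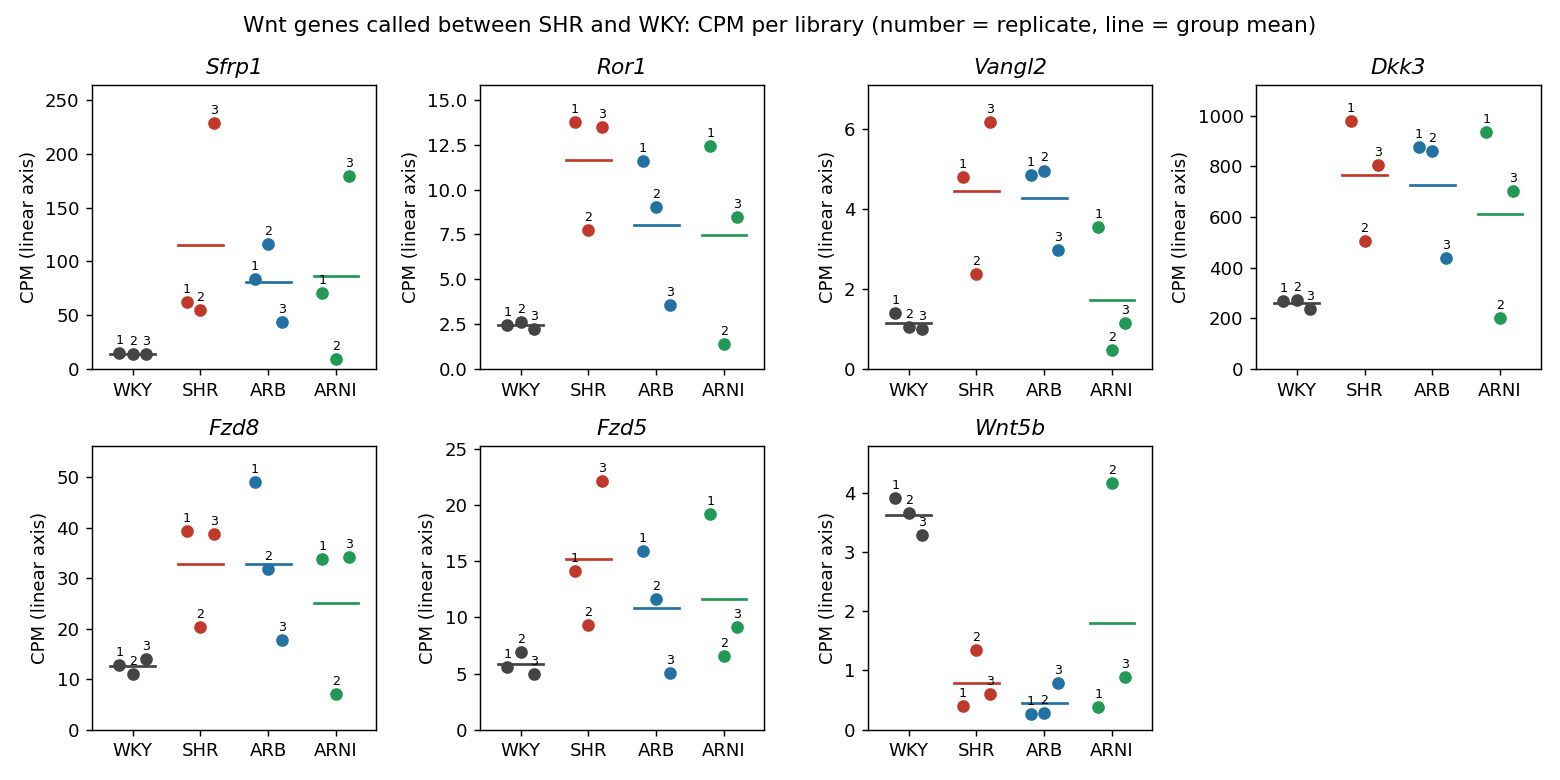
CPM of the 7 called genes in each library (vertical axes linear from 0), with the replicate number over each point and the group mean as a line. ARNI replicate 2 lies within or beyond the WKY values on the side away from SHR for all 7 genes.

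Some markers of other cells also differed between SHR and WKY. The summed CPM of 7 epicardial and mesothelial markers, none of which was at 0 in all libraries of a group, was 60.8 to 83.2 in WKY, 218 to 465 in SHR, 78.0 to 289 in ARB and 48.2 to 320 in ARNI. Its maximum was in SHR replicate 3, the library with the highest Sfrp1, and its minimum in ARNI replicate 2, the library with the lowest Sfrp1. Of the 7 markers, Wt1 overlapped between SHR and WKY (log2 fold change -0.27), and the rest were higher in SHR. The summed CPM of 8 fibroblast markers overlapped between groups, at 3215 to 3881 in WKY and 1805 to 6403 in SHR. This fibroblast sum was also highest of all libraries in SHR replicate 3, and it was lowest in SHR replicate 2. The summed CPM of 5 smooth muscle markers was 330 to 398 in WKY and 275 to 326 in SHR, and that of 6 lymphocyte markers 15.6 to 21.6 in WKY and 4.57 to 10.6 in SHR. Single markers of these 2 lists did not all follow: Acta2, Cnn1, Smtn, Cd3e and Nkg7 overlapped. Most of the lymphocyte sum was Ptprc, at a mean of 15.0 CPM in WKY and 5.32 CPM in SHR. None of the 43 genes was in a marker list, and the part of these cells in the Wnt gene differences was not tested.

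Libraries of SHR, ARB and ARNI with different chamber markers differed in the level of the called genes, which was described and not tested. For all 7 called genes, SHR replicate 2, which held both atrial and ventricular markers, was the SHR library nearest to WKY. The share of all called genes of the table with this order was not counted. ARB replicate 3, the other library with both marker sets, lay on the SHR side for 2 of the 7, between the SHR and WKY ranges for 4 and on the WKY side for 1 (14.3%). Over all genes of the table ARB replicate 3 lay on the WKY side for 11% of the 1226 called and 23.7% of the 6837 with no overlap. ARNI replicate 2 lay on the WKY side for 7 of 7, and for 15 of the 19 genes whose SHR and WKY ranges did not overlap (78.9%). Over all genes of the table it lay on the WKY side for 53.9% of the 6837 with no overlap and for 47.8% of the 1226 called, and among the other Wnt pathway genes for 26 of 46 and 4 of 9. ARB replicate 1, ARB replicate 2 and ARNI replicate 1, which held atrial markers and an Irx4 of 0, lay on the SHR side for 7 of 7, and ARNI replicate 3 for 5 of 7. For these libraries the share over all genes was not counted. In the 6 libraries with Irx4 below 0.1 CPM, Dkk3 ranged from 702 to 981 CPM, Ror1 from 8.48 to 13.8 CPM, Sfrp1 from 62.1 to 229 CPM and Fzd8 from 31.7 to 49.0 CPM, and these 4 called genes were lower in each of the other 6 libraries. The other called genes did not separate the 6 libraries in this way. Vangl2 ranged from 1.15 to 6.18 CPM in them, around the 2.36 CPM of SHR replicate 2 and the 2.97 CPM of ARB replicate 3. Fzd5 ranged from 9.16 to 22.2 CPM, around the 9.30 CPM of SHR replicate 2, and Wnt5b from 0.265 to 0.882 CPM, around the 0.793 CPM of ARB replicate 3. Some genes that were not called also separated the 6 libraries. Fzd2 (16.2 to 20.1 CPM in them), Fzd7 (6.35 to 8.41 CPM) and Vangl1 (19.5 to 26.1 CPM) were lower in each of the other 6 libraries. Fzd1 (15.8 to 23.7 CPM) and Wnt11 (2.40 to 6.85 CPM) were higher in each of those. Sfrp2, also not called, was highest in SHR replicate 2 and ARB replicate 3, and Wnt5a had no order by chamber markers. The share of all genes that separated the libraries in this way was not counted.

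**Figure D3:**
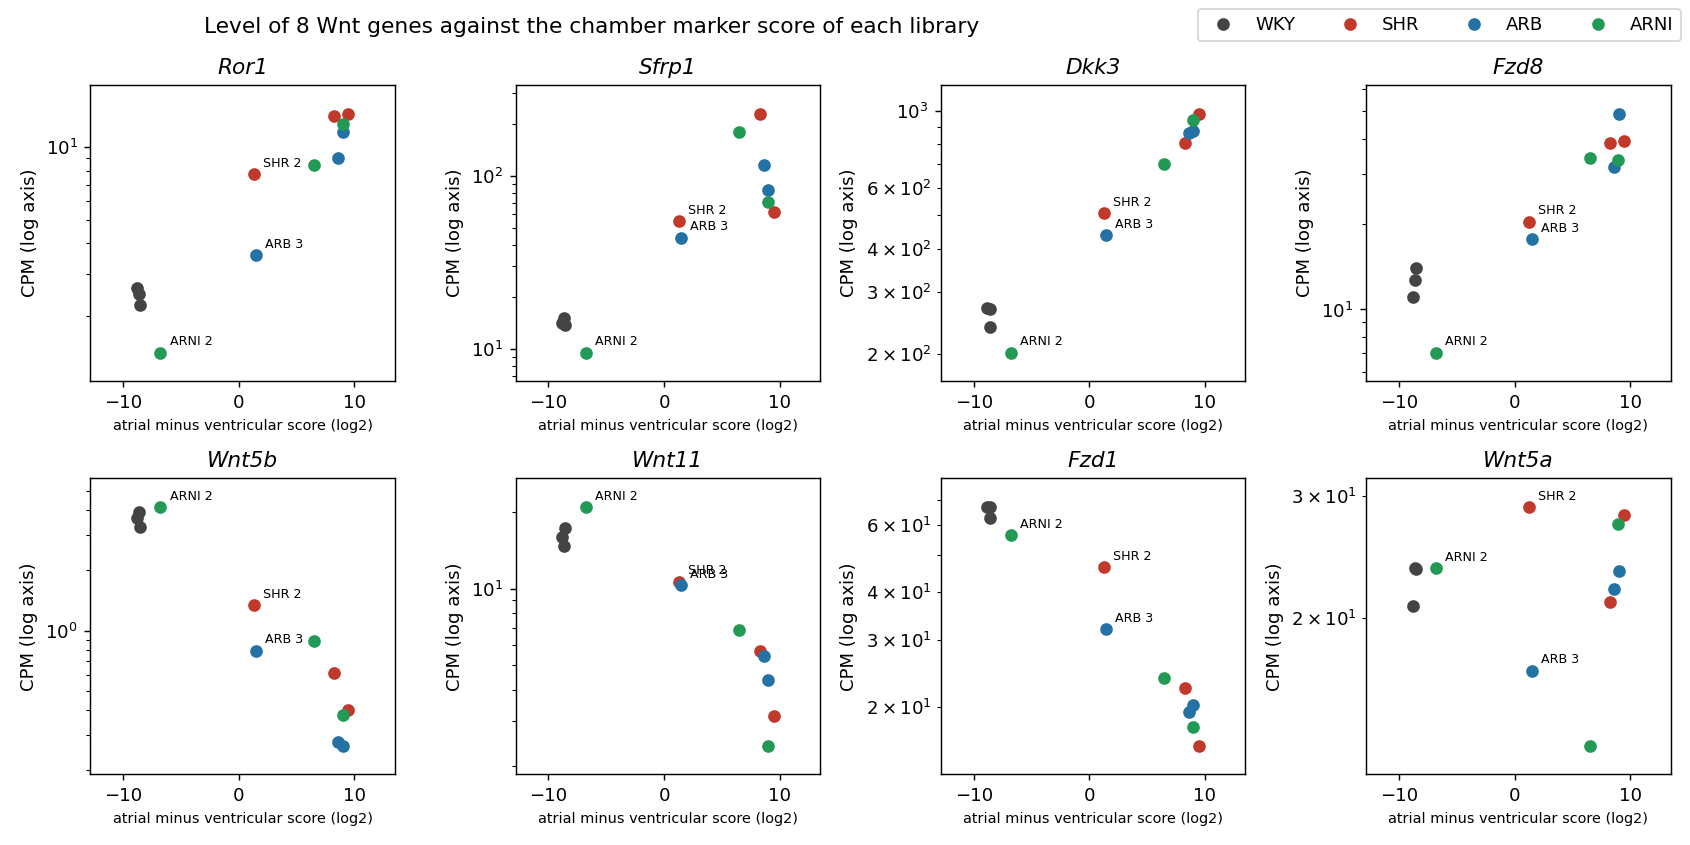
CPM (log axis) of 8 genes in the 12 libraries against an atrial minus ventricular marker score (log2 scale, horizontal axis), coloured by group. The WKY libraries and ARNI replicate 2 sit at the left, SHR replicate 2 and ARB replicate 3 near the middle and 6 libraries at the right; Dkk3 is highest and Fzd1 lowest at the right, while Wnt5a has no such order.

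The number of calls between SHR and WKY depended on the fit, for Wnt genes and for the whole table. A fit of all 12 libraries with a shared spread called 0 of 31 Wnt genes and 4.01% of all genes, with log2 fold changes close to those above, as for Ror1 (2.11, adjusted p = 0.0602 by edgeR) and Dkk3 (1.41, adjusted p = 0.0709). Leaving out any 1 WKY library left 1 Wnt gene, Ror1, and 2.46% to 2.78% of all genes, and the log2 fold change then ranged from 1.37 to 1.44 for Dkk3 and from 2.82 to 2.87 for Sfrp1. Without SHR replicate 1, 3 Wnt genes (Dkk3, Ror1 and Sfrp1) and 4.12% of all genes were called. Without SHR replicate 2, 12 Wnt genes were called, the 7 and Fzd1, Fzd9, Sfrp2, Sfrp5 and Wnt11, with 15.7% of all genes. When the marker score entered the fit of all 12 libraries, 0 Wnt genes and 0.775% of all genes were called and the sign of all 7 turned, in a model in which the SHR and WKY scores did not overlap.

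**Figure D4:**
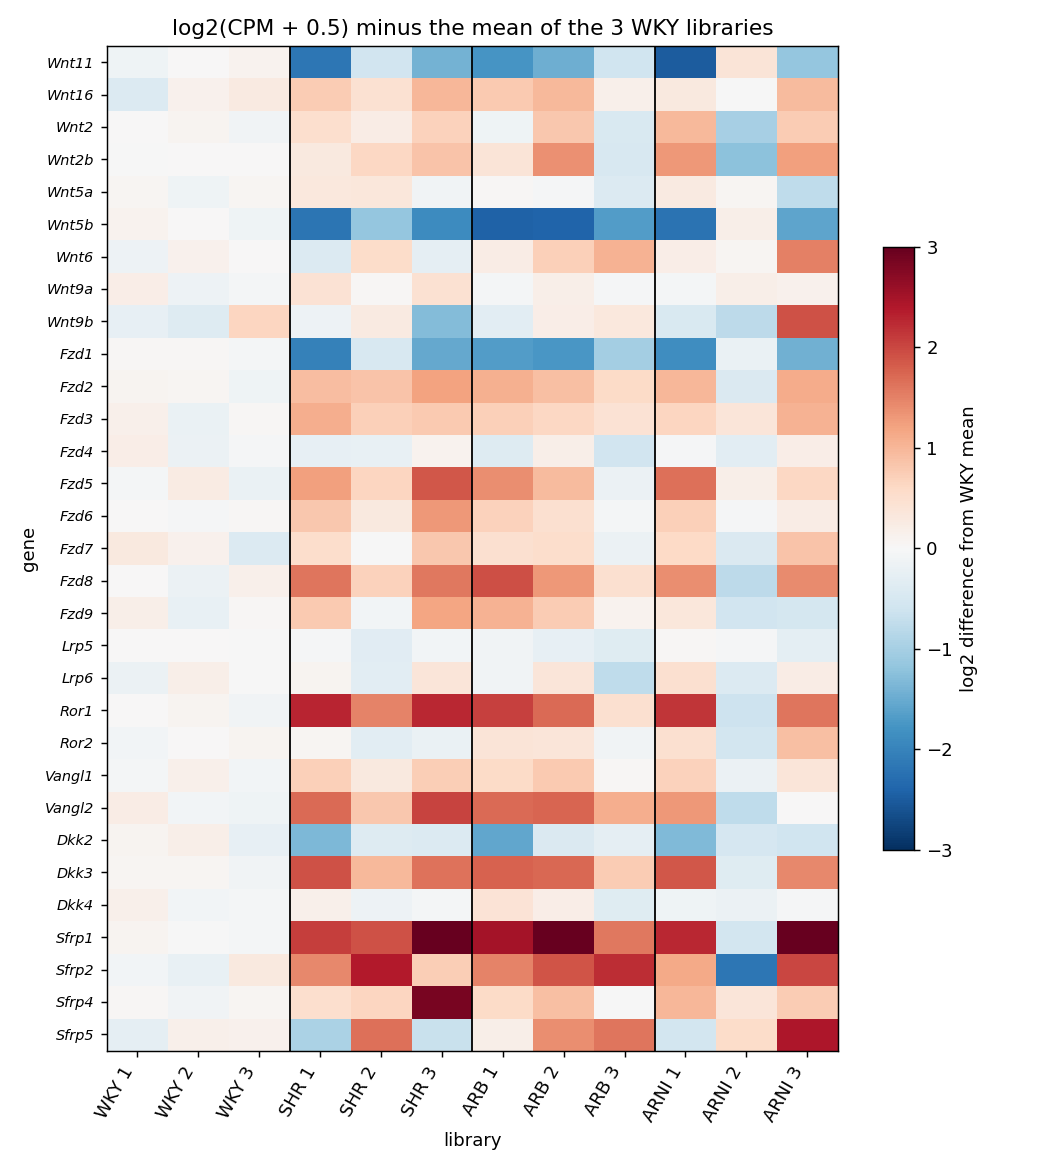
Difference of log2(CPM + 0.5) from the mean of the 3 WKY libraries (colour, clipped at -3 and 3) for the 31 genes tested in any comparison (rows, by role) in the 12 libraries (columns). The column of ARNI replicate 2 is pale or of the opposite colour where the SHR columns are strongly red or blue, as for Ror1, Dkk3, Fzd1 and Wnt11.

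Other genes of the Wnt pathway gave a share of calls near the background. Of 104 genes listed by role, 103 had counts, 90 were tested between SHR and WKY, and 9 were called (10%, background 8.89%), 8 higher and 1 lower in SHR. Their median log2 fold change was 0.15, beside 0.01 over all genes. Those higher with the largest SHR-over-WKY log2 fold changes were Ccn5 (3.52), a matricellular protein of the Wnt-induced family, and the antagonist Frzb (2.75), followed by the glypicans Gpc3 (1.79) and Gpc4 (1.79), the agonist Rspo1 (1.63), the polarity cadherin Celsr2 (1.41), the decoy receptor Bambi (1.30) and Ptk7 (1.23). Tcf7, a nuclear partner of beta-catenin, was lower (-1.61). At any fold, 22 of 90 passed the p threshold (24.4%, background 20.6%), among them Wls (0.87) and Porcn (0.64), with whose help the ligands leave the cell.

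Frzb, an Sfrp relative, was at 2.98, 1.65 and 1.24 CPM in WKY, 12.1, 5.05 and 27.7 CPM in SHR, 12.3, 10.7 and 7.37 CPM in ARB, and 5.62, 5.11 and 4.89 CPM in ARNI. All SHR and ARB values lay above WKY (SHR-over-WKY log2 fold change 2.75, SE 0.64, adjusted p = 0.0301 by edgeR), and all ARNI values lay below all ARB values. The ARNI and ARB ranges did not overlap for 5 of 94 other pathway genes tested, Frzb included (5.32%, background 10.5%). Tcf7 was at 11.7, 15.5 and 14.7 CPM in WKY and 4.41, 5.20 and 5.42 CPM in SHR (log2 fold change -1.61, SE 0.17, adjusted p = 0.00433 by edgeR). It was at 10.1 CPM in ARNI replicate 2 and 9.27 CPM in ARB replicate 3, and at most 6.58 CPM in the other ARB and ARNI libraries.

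Of 11 genes that beta-catenin is known to induce in other tissues, 8 were tested and 2 were called, Ccn5 and Bambi. The background over all genes tested was 8.89%. Ccn5 was at 0.426, 1.65 and 1.69 CPM in WKY, 15.8, 15.6 and 16.2 CPM in SHR, 11.04, 16.4 and 19.0 CPM in ARB, and 5.12, 0.629 and 18.2 CPM in ARNI. Bambi was at 4.09 to 5.51 CPM in WKY and 10.2 to 17.9 CPM in SHR. Axin2, the most widely used readout of the branch, was at 4.43, 3.65 and 3.64 CPM in WKY and 5.22, 6.31 and 10.2 CPM in SHR, with no overlap and a log2 fold change of 0.74 (SE 0.26, adjusted p = 0.0855 by edgeR). Ccnd1, Myc, Nkd1, Nkd2 and Tnfrsf19 overlapped between the groups.

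No Wnt gene passed the test between the treated groups and SHR, or between the treated groups. No gene of the table was called by edgeR in ARB versus SHR, ARNI versus SHR or ARNI versus ARB (0% of 13979, 13955 and 13948 genes), and 0 of the 30, 30 and 31 Wnt genes tested had an unadjusted p under 0.05, where the background was 1.61%, 1.63% and 3.86%. DESeq2 called 3, 7 and 18 genes of the table and 0 Wnt genes, and 0, 0 and 1 (Wnt5b) of the Wnt genes had an unadjusted p under 0.05 by DESeq2. The CPM ranges of the groups did not overlap for 1 of 30 Wnt genes in ARB versus SHR (Fzd3, lower in ARB, background 5.39%), for 0 of 30 in ARNI versus SHR (background 6.56%) and for 0 of 31 in ARNI versus ARB (background 10.5%). The 2 comparisons against SHR share the SHR libraries.

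In ARB versus SHR the log2 fold changes ran from -1.63 (Sfrp4, SE 0.87) to 1.22 (Wnt6, SE 0.67), with a median of -0.07. In ARNI versus SHR they ran from -1.30 (Sfrp4, SE 0.86) to 1.34 (Wnt5b, SE 1.02), with a median of -0.15. In ARNI versus ARB the ends were Vangl2 at -1.27 (SE 0.65) and Wnt5b at 2.13 (SE 1.06), and the Wnt5b value rested on ARNI replicate 2, at 4.17 CPM beside 0.379 and 0.882 CPM in the other ARNI libraries. Sfrp4 was at 0.669, 0.788 and 5.35 CPM in SHR, so its values against SHR rested on SHR replicate 3.

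**Figure D5:**
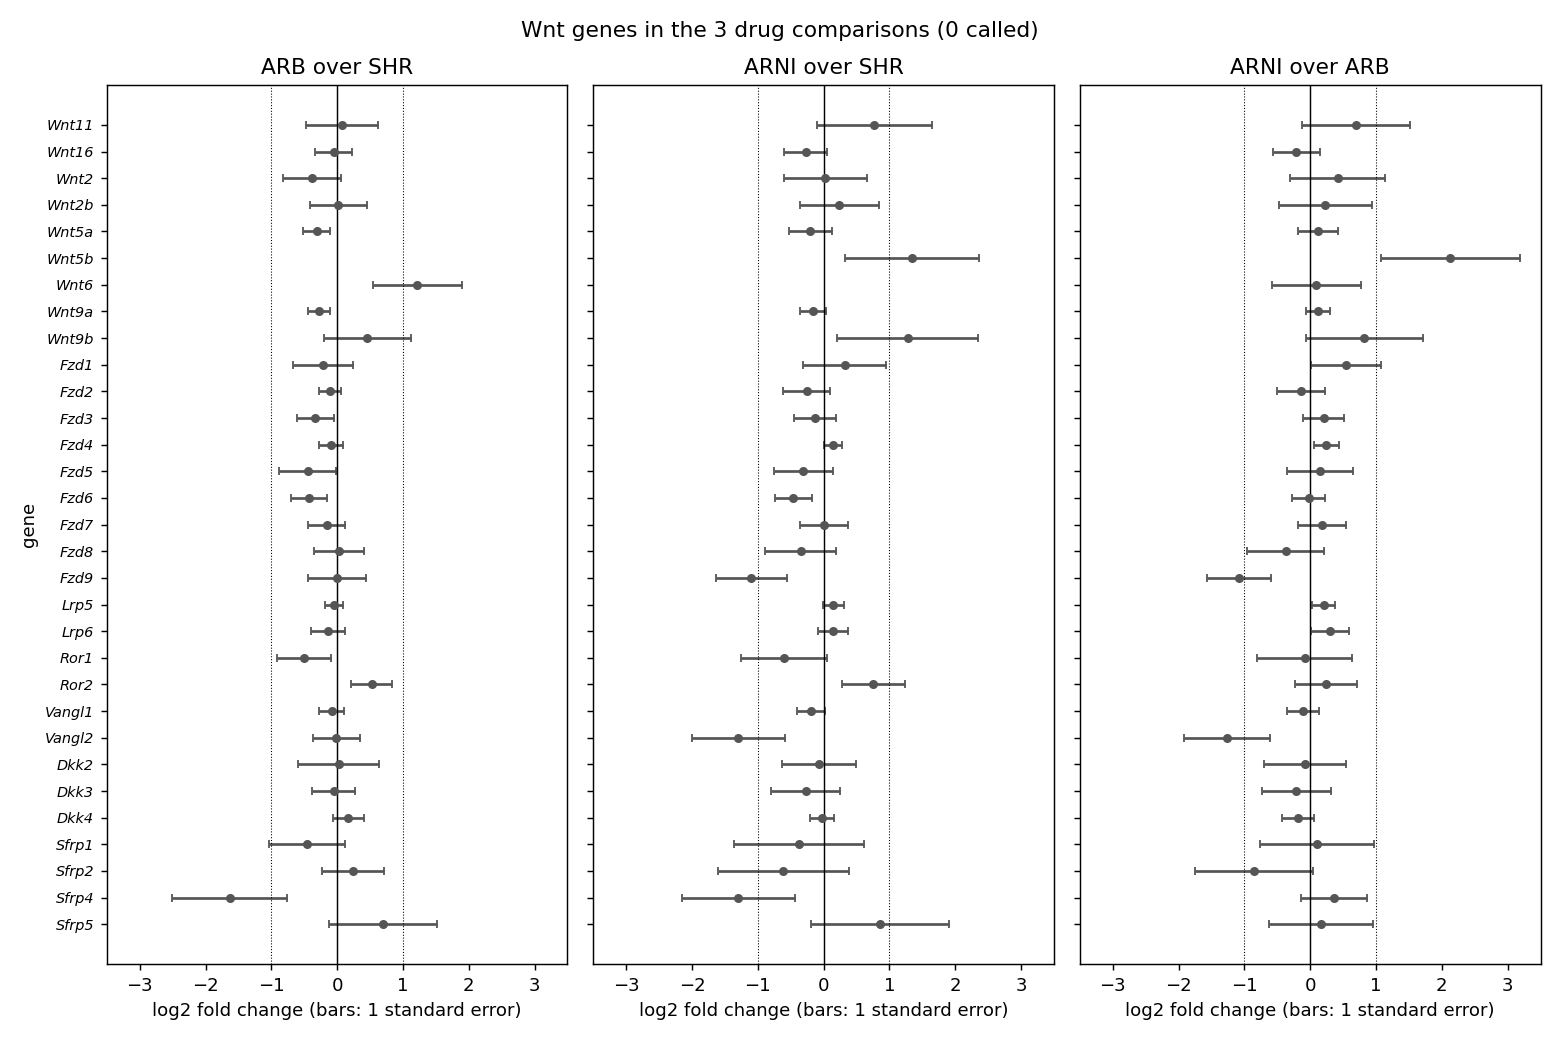
Log2 fold change (horizontal axes) of the Wnt genes tested in ARB over SHR, ARNI over SHR and ARNI over ARB, with bars of 1 standard error and dotted lines at -1 and 1. Most points lie between the dotted lines, and those outside, such as Sfrp4, Wnt5b and Vangl2, have wide bars.

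Leaving out SHR replicate 2, ARB replicate 3 and ARNI replicate 2, the libraries with ventricular markers, left 2 libraries in each of these groups and again 0 calls in each comparison. Sfrp5 then had a log2 fold change of 1.88 in ARB over SHR (unadjusted p = 0.00811, adjusted p = 0.999962 by edgeR), from 6.10 and 14.9 CPM in ARB beside 2.52 and 3.19 CPM in SHR. Wnt2b had one of 0.75 in ARNI over SHR (unadjusted p = 0.0276, adjusted p = 0.999891 by edgeR), from 18.8 and 17.9 CPM beside 9.02 and 13.7 CPM. Wnt5b, the gene with the largest increase with all libraries, then spanned 0.265 to 0.882 CPM over the 6 libraries.

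Among the other pathway genes, Frzb was the one with the smallest p in ARNI versus ARB: its log2 fold change was -0.89 (SE 0.23, unadjusted p = 0.00788, adjusted p = 0.993 by edgeR), and in ARNI versus SHR it was -1.41 (SE 0.56, unadjusted p = 0.0443, adjusted p = 0.999 by edgeR). Neither passed the correction over all genes. Without the 3 libraries that held ventricular markers these values were -1.11 and -1.85.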

How the data were processed

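RNA of 12 rat libraries labelled left atrium (3 per group) was examined. The authors filtered reads with SOAPnuke, aligned them with HISAT2 (2.0.4) and Bowtie2 (2.2.5) and deposited RSEM expected counts per gene, which are estimated counts without normalization, and the build in the submitters' processing notes is Rnor_6.0. RSEM shares a read between similar genes, so 23.6% of values were not whole, and closely related Wnt or frizzled genes could exchange reads. The deposited columns of the authors' own comparison, a fold change and a p-value, were not used.

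Samples were grouped by the bracketed library name. Expected counts were rounded, filtered with filterByExpr, scaled by TMM and compared pairwise with edgeR 4.0.16 (quasi-likelihood test, 6 libraries, R 4.3.3, limma 3.58.1), with Benjamini-Hochberg adjustment over all genes tested. Standard errors came from the F statistic. DESeq2 1.42.0 was an alternative. CPM used library totals of 11252361 to 15823525 counts, 3 counts being 0.190 to 0.267 CPM, which covers counting error only. Fits were tested on simulated data. Python 3.11.15, pandas 2.3.3, numpy 2.4.6 and matplotlib 3.10.9 made tables and figures. No levels were compared between genes per length, and statements on the highest CPM are not length-corrected.

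The genes and lists were chosen with earlier results of these data known. Genes called, or among the 12 highest by mean CPM, are given in full, and others by range. From the pathway list the induced targets, Frzb and up to 10 called genes per comparison, by size of fold change, could be named, and the 9 called were. Wnt2b, Wnt11, Fzd3, Ror2, Sfrp4, Sfrp5, Dkk2 and Dkk4 were described further, and the motifs chosen, after their values were seen. Replicate numbers were checked as pairs: deviations of same-numbered libraries correlated at 0.03, -0.05 and -0.07 in SHR versus WKY, 0.42, -0.24 and -0.25 in ARB versus SHR, 0.52, -0.45 and -0.15 in ARNI versus ARB, and 0.51, 0.46 and 0.19 in ARNI versus SHR. ARNI versus SHR alone met the rule that all exceed 0.1, and a replicate block there also called 0 Wnt genes. The main fit used no block. Libraries of unlike number also correlated, at 0.58 for ARNI replicate 2 with ARB replicate 3 and 0.51 for ARB replicate 3 with SHR replicate 2. Those libraries held ventricular markers, so such a correlation does not by itself mark a pair.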

Additional observations from a re-analysis of the deposited data

How the results depend on the processing

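Between SHR and WKY, 7 Wnt genes and 9 other pathway genes were called. Wnt genes called were 11 with DESeq2 (of 42 tested), 8 with upper quartile scaling, 10 with total counts only, 7 without the low-count filter and 8 with no fold threshold (22 other pathway genes); the 7 were among those called in each. Scaling by total counts moved the median over all genes to 0.15 (log2). Of all genes these settings called 8.53%, 8.94%, 9.77%, 6.62% and 20.6%. A fit of all 12 libraries called 0 Wnt genes (4.01% of all genes). With the replicate block 4 were called (Dkk3, Fzd8, Ror1 and Sfrp1; 4.94% of all genes), although the numbers do not pair these libraries. With the marker score 0 Wnt and 0 other pathway genes were called (0.775% of all genes), and the log2 fold changes turned to Dkk3 -0.41, Wnt5b 0.65, Vangl2 -0.32, Fzd5 -0.18, Ror1 -0.39, Fzd8 -0.84 and Sfrp1 -0.15, with the SHR and WKY scores not overlapping. Leaving out 1 library gave 1 to 12 Wnt genes and 3 to 17 other pathway genes, with 2.46% to 15.7% of all genes, the most without SHR replicate 2 (12 and 17) and the fewest without a WKY library. Keeping only SHR libraries without ventricular markers, chosen after seeing the data, is here the same fit as leaving out SHR replicate 2. Without SHR replicate 3, 7 were called, Sfrp2 in place of Fzd5. Fits without a library hold fewer samples, and for the other changes the cause was not tested. In the 3 comparisons of treated groups, 0 Wnt genes and 0 other pathway genes were called under every alternative run, replicate block included. With 3 libraries per group of mixed chamber content, standard errors of log2 fold changes reached 1.07 in the treated groups, and the 12 least read genes were below what the depth can compare.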
